A study of Mus musculus with 15 samples.

Results

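Transcripts of B lymphocyte development were followed through a macrophage culture grown from mouse bone marrow. The 9 genes are Cd79a, Cd79b, Ms4a1, Pax5, Ebf1, Vpreb3, Igll1, Rag1 and Blnk. They were taken by their symbols from the 34245 genes of the differentiation table, and each symbol matched 1 gene. The set was chosen with earlier results of these data known. In the non-adherent precursors all 9 were detected in all 3 libraries. In immature macrophages 4 of them had no read, 3 had 1 or 2 reads in all, Cd79b kept 2.71% of its precursor level and Blnk was higher than in precursors. In mature macrophages 7 had no read and Cd79b had 1.

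All cells came from marrow of male C57BL/6 mice aged 8 to 10 weeks and had been kept in medium with CSF-1, which drives marrow cells to become macrophages, and with fetal calf serum (FCS). Precursors had 2 days of CSF-1 at 0.6 ng/ml and 15% FCS, and the cells that had not attached were moved to a fresh dish after the first of these. Immature macrophages had those 2 days and then 4 days at 12 ng/ml in 10% FCS, and mature macrophages had 1 day at 0.6 ng/ml, 2 days at 12 ng/ml and 7 days at 120 ng/ml. In a separate table, macrophages taken through the mature schedule were kept for a further 48 h in 120 ng/ml CSF-1, either with nothing else (unstimulated) or with 20 ng/ml interleukin 4 (IL4). There were 3 libraries in each of the 5 groups, titled as mouse 1 to 3, sequenced by Ion Torrent. No step that sorts cells is described, so each library holds RNA of a mixed culture, and in such bulk samples fewer cells of a type and less RNA per cell cannot be told apart.

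Marrow is the site where B cells are made. Ebf1 and Pax5 are the transcription factors that set up and hold B lineage identity, Rag1 is a subunit of the recombinase that assembles immunoglobulin genes, and Igll1 (lambda 5) with a Vpreb chain forms the surrogate light chain of the pre-B cell receptor. Cd79a and Cd79b carry the signal of that receptor and of the later B cell receptor into the cell, where the adaptor Blnk passes it on from the kinase Syk, and Ms4a1 (CD20) is a surface protein gained as B cells mature. Blnk is also known in macrophages, and some of the others have roles in other tissues, as Ebf1 has in marrow stroma and fat cells.

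Promoter sequences were set beside each other to see whether the 9 genes share short motifs. RefSeq promoter windows on GRCm38.p6 were at hand for 7 of the 9, in 8 entries, 2 of them for Ebf1, and the 250 bases before each start were searched on both strands for 4 short motifs. The E-box CAGGTG, a form bound by the B lineage factor E2A, was in 4 of the 8 windows and in 17.2% of the 32851 windows of all genes. The octamer ATGCAAAT, known from immunoglobulin promoters, was in 2 of the 8 and in 1.6% of all. The palindrome of the EBF factors was in 0 of 8 and 0.779% of all, and the PU.1 motif GAGGAAGT in 0 of 8 and 2.44%. A match is a description of letters and not a site. The sequences printed here, from RefSeq, belong to the 4 genes with a match in a stretch outside the annotated exons of the gene, with the match in capitals and the last base nearest the start. They are chr7:24897247-24897380 on the plus strand for Cd79a, chr16:16863986-16864235 on the minus strand for Igll1, chr2:101649533-101649782 on the minus strand for Rag1 and chr10:75948050-75948299 on the plus strand for Vpreb3. Capitals mark the E-box, read as CAGGTG or on the other strand as CACCTG, in the first 3, and the octamer, on the other strand as ATTTGCAT, in Vpreb3.
Cd79a: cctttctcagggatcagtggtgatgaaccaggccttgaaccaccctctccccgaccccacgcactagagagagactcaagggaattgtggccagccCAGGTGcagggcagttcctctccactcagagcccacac
Igll1: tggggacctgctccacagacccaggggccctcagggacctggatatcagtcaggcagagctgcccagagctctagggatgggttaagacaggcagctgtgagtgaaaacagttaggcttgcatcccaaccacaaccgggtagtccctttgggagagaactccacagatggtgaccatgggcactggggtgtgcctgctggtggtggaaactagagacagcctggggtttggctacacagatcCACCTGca
Rag1: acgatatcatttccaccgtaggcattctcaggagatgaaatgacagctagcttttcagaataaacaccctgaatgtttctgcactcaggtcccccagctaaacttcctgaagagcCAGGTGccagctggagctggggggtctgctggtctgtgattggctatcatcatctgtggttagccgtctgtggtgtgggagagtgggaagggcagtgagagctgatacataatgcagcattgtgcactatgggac
Vpreb3: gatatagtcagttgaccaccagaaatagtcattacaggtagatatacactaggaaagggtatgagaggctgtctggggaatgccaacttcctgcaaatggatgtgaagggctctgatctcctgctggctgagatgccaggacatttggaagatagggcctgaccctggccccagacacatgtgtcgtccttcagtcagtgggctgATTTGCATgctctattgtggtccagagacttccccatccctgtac

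The matches stood at different distances from the RefSeq starts. Their first base lay 154 bases before the start in Cd79a, 8 in Igll1, 135 in Rag1 and 45 in Vpreb3. In Cd79a 116 bases of the window lie in annotated exons, so its printed stretch ends 117 bases before that RefSeq start. Blnk, the gene whose level went the other way, had both the E-box, 160 bases before its start, and the octamer, 130 bases before it. The window of Blnk is not printed, as it lies within its annotated exons.

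The 9 differentiation libraries held 7897769 to 22167294 reads and those for IL4, 6 in number, between 2408531 and 4214266 reads. Levels are CPM, reads per 1000000 of a library total scaled by TMM, and 3 reads over a group, the limit taken for a count of 0, were 0.0991 CPM in immature and 0.0883 CPM in mature macrophages. By their markers the cultures moved to macrophages: the summed level of 10 macrophage genes, among them Csf1r (the CSF-1 receptor), Adgre1, Cd68 and C1qb, was 1397 to 2148 CPM in precursors, 10721 to 15699 in immature and 13892 to 18246 in mature macrophages, and 9 of the 10 rose from precursors to immature macrophages. Of all tested genes 22.5% rose over that step. The same precursors held 13096 to 19604 CPM of 10 neutrophil granule genes. Tests were edgeR quasi-likelihood fits over all genes, called under an adjusted p of 0.05. They measure the spread between libraries, which the titles assign to separate mice.

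Cd79a and Cd79b, the paired signal chains of the B cell receptor, had the highest levels per length of the 9 genes in precursors. Cd79a (chr7:24897381-24902197, GRCm38, plus strand) was at 63.6, 104.1 and 91.4 CPM in the 3 precursor libraries, a mean of 86.4 ± 20.7 (SD, n = 3), from 966, 2577 and 1139 reads. It had 0 reads in all 3 immature and all 3 mature libraries. Over pooled reads its level in precursors was at least 902-fold higher than in immature and at least 1011-fold higher than in mature macrophages, bounds that rest on those 3 reads. The fall passed the test in both comparisons (adjusted p = 8.01e-06 for immature macrophages, edgeR).

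Cd79b did not follow its partner to 0. It lies at chr11:106311341-106314762 on the minus strand and was at 57.2, 84.3 and 95.5 CPM in precursors (79.0 ± 19.7, SD, n = 3). In immature macrophages it was at 1.65, 2.25 and 2.81 CPM (2.24 ± 0.579, SD, n = 3), from 21, 22 and 22 reads. In mature macrophages it had 0, 0 and 1 reads. The 3 groups did not overlap in CPM. The log2 fold change from precursors to immature macrophages was -5.16 ± 0.32 (SE; adjusted p = 2.41e-06, edgeR), and that from immature to mature macrophages was -5.82 ± 0.65 (SE; adjusted p = 0.000371). Over pooled reads the level fell 36.9-fold in the first step. In the second, 65 reads in immature against 1 in mature macrophages gave a ratio of 72.9, with a 95% counting interval of 12.6 to 2923.

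In precursors Cd79b reads were 0.900, 0.810 and 1.04 times the Cd79a reads of the same library. In immature macrophages 65 reads of Cd79b stood beside 0 of Cd79a, although 3 reads of Cd79a would have been 0.111% of its precursor level. No gene of another name overlaps Cd79a or Cd79b in the GENCODE M21 annotation. Cd79b passed the test as lower in mature than in immature macrophages, where 7.38% of all 13359 tested genes passed as lower and 7.52% as higher. Blnk did not pass, and the rest of the 9 genes had 0 to 2 reads over both groups, too few to pass.

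**Figure D1:**
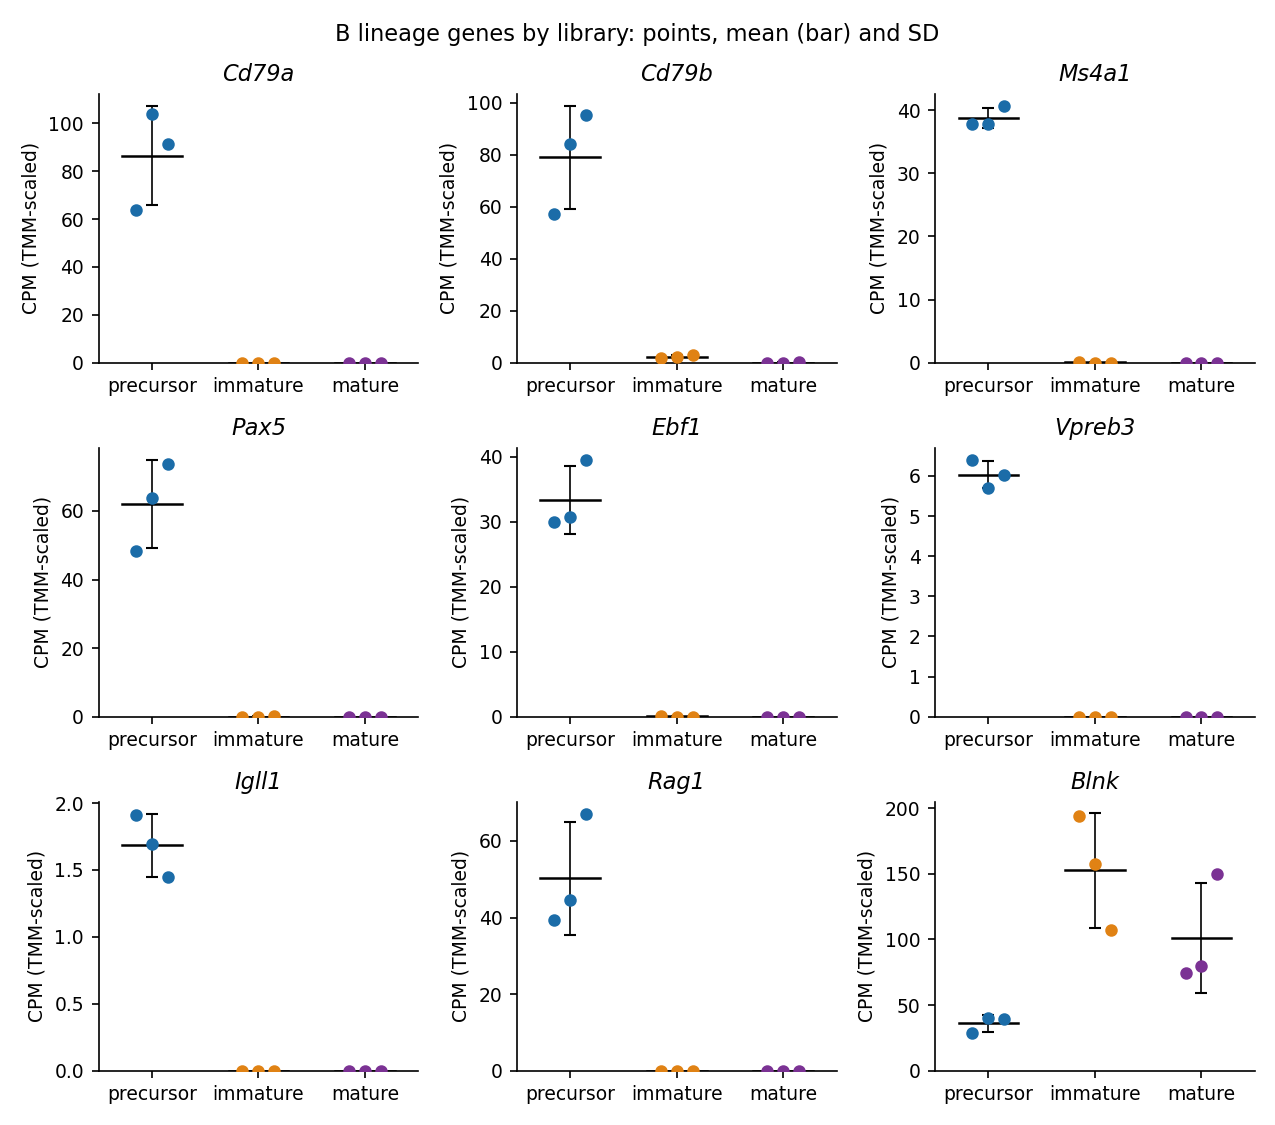
Level of each of the 9 genes by library, in CPM with TMM-scaled totals, on a linear axis from 0 that differs between panels. Points are libraries, bars the mean and whiskers the SD of 3 libraries; for every gene other than Blnk the immature and mature points sit at or near 0, with Cd79b at 1.65 to 2.81 in immature macrophages, while Blnk is above its precursor level in all 6 macrophage libraries.

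Igll1 and Vpreb3 had the fewest reads of the 9 genes in precursors, though per length only Igll1 was the lowest. Igll1 (chr16:16860671-16863985, minus strand) was at 1.91, 1.70 and 1.44 CPM in precursors, a mean of 1.68 ± 0.233 (SD, n = 3), from 29, 42 and 18 reads. Vpreb3 (chr10:75943057-75949657, plus strand), a relative of the Vpreb chains that is expressed in B cell precursors, was at 6.39, 5.69 and 6.02 CPM (6.03 ± 0.347, SD, n = 3). Neither had a read in any of the 6 immature and mature libraries. With so few reads the bounds are weak: Igll1 was at least 17.1-fold higher in precursors than in immature macrophages, and Vpreb3 at least 60.3-fold. Both passed the test there (adjusted p = 0.00128 for Igll1 and 0.000153 for Vpreb3, edgeR). Vpreb1 and Vpreb2, the near-identical chains that pair with Igll1, had 37 and 8 reads over the 3 precursor libraries and were too low to test. How reads that fit more than 1 copy were counted is not given in the sources used here, so the levels of the Vpreb genes and of Igll1, which resembles the lambda constant genes, are uncertain.

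Rag1, the recombinase subunit that cuts immunoglobulin genes, was well above its partner Rag2. It was at 39.2, 44.6 and 66.9 CPM in precursors (50.3 ± 14.7, SD, n = 3), from 596, 1104 and 834 reads, and had 0 reads in all 6 macrophage libraries. Its level in precursors was at least 488-fold that in immature and 547-fold that in mature macrophages, and the fall passed the test (adjusted p = 1.67e-05 in immature macrophages, edgeR). Per kilobase of exon, Rag1 was at 7.61 ± 2.22 CPM and Rag2 at 0.527 ± 0.0760 CPM in precursors (SD, n = 3). Rag1 (chr2:101638282-101649501, minus strand) lies wholly within B230118H07Rik on the same strand, so reads of the 2 genes could have been split by the counting. B230118H07Rik itself had 54 to 69 reads in the immature and 75 to 158 in the mature libraries, where Rag1 had none.

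The 2 transcription factors that define the lineage fell in parallel. Pax5 (chr4:44524757-44710487, minus strand), which commits cells to the B lineage, was at 48.2, 63.8 and 73.7 CPM in precursors (61.9 ± 12.9, SD, n = 3). It had 0, 0 and 1 reads in immature and 0 in mature macrophages. Ebf1 (chr11:44617317-45008091, plus strand), which acts with Pax5 and before it, was at 29.9, 30.7 and 39.4 CPM in precursors (33.3 ± 5.27, SD, n = 3), with 2, 0 and 0 reads in immature and 0 in mature macrophages. Precursors exceeded immature macrophages 1867-fold for Pax5 (95% counting interval 335 to 73775) and 493-fold for Ebf1 (136 to 4074). Both falls passed the test (adjusted p = 3.24e-06 and 6.73e-06, edgeR). Small genes overlap Pax5 (the miRNA gene Mir5120 on the same strand and 3 on the opposite one) and Ebf1 (1 on the opposite strand), and whether the counting used strand is not given in the sources used here.

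Ms4a1, the CD20 surface protein, had the steadiest level in precursors. It lies at chr19:11249675-11266241 on the minus strand and was at 37.9, 37.8 and 40.6 CPM (38.8 ± 1.60, SD, n = 3), from 575, 937 and 506 reads. It had 2, 0 and 0 reads in immature and 0 in mature macrophages. The ratio of precursors to immature macrophages was 583, with a 95% counting interval of 161 to 4818, and that to mature macrophages was at least 436 (adjusted p = 4.74e-06 for the first, edgeR). An antisense gene that spans Ms4a1, 4930526L06Rik, had no read in any of the 9 libraries.

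Some of these bounds move with single libraries, because fewer reads are left to set them. Without immature library 1 the bound on precursors over immature macrophages was 524-fold for Cd79a, 284 for Rag1, 35.0 for Vpreb3 and 9.96 for Igll1, and Ms4a1 and Ebf1, whose only reads were in that library, became bounds of 226 and 191. The single Pax5 read was in immature library 3, without which its bound was 462, and the ratio without immature library 1 was 1085. Without mature library 1 or 3 the bounds on precursors over mature macrophages were 644 or 622 for Cd79a, 348 or 337 for Rag1, 444 or 429 for Pax5, 277 or 268 for Ms4a1, 235 or 227 for Ebf1, 43.0 or 41.6 for Vpreb3 and 12.2 or 11.8 for Igll1. For Cd79b the ratio of precursors to mature macrophages was 2687 (482 to 106154) with all libraries, 1710 without mature library 1 and, since its read was in library 3, at least 551 without that.

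All 8 genes other than Blnk thus passed as lower in immature macrophages than in precursors, in a comparison where 26.6% of tested genes were lower and 22.5% higher. They passed as lower again in mature macrophages against precursors, where 28.5% of genes were lower and 25.8% higher (with limma on the deposited log2 RPM the balance over all genes turned in both comparisons); the precursor libraries are the same in both comparisons. Summed over the 8 genes the level was 284, 373 and 415 CPM in the precursor libraries, 1.97, 2.25 and 2.94 CPM in the immature and 0, 0 and 0.0765 CPM in the mature libraries. Of the 70 reads left in the 3 immature libraries, 65 were those of Cd79b. The rest of the 8 genes had almost no reads in macrophages and entered the test through their precursor reads. For them a call of lower was nearly fixed in advance, so the shares over all genes are no measure of support.

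**Figure D2:**
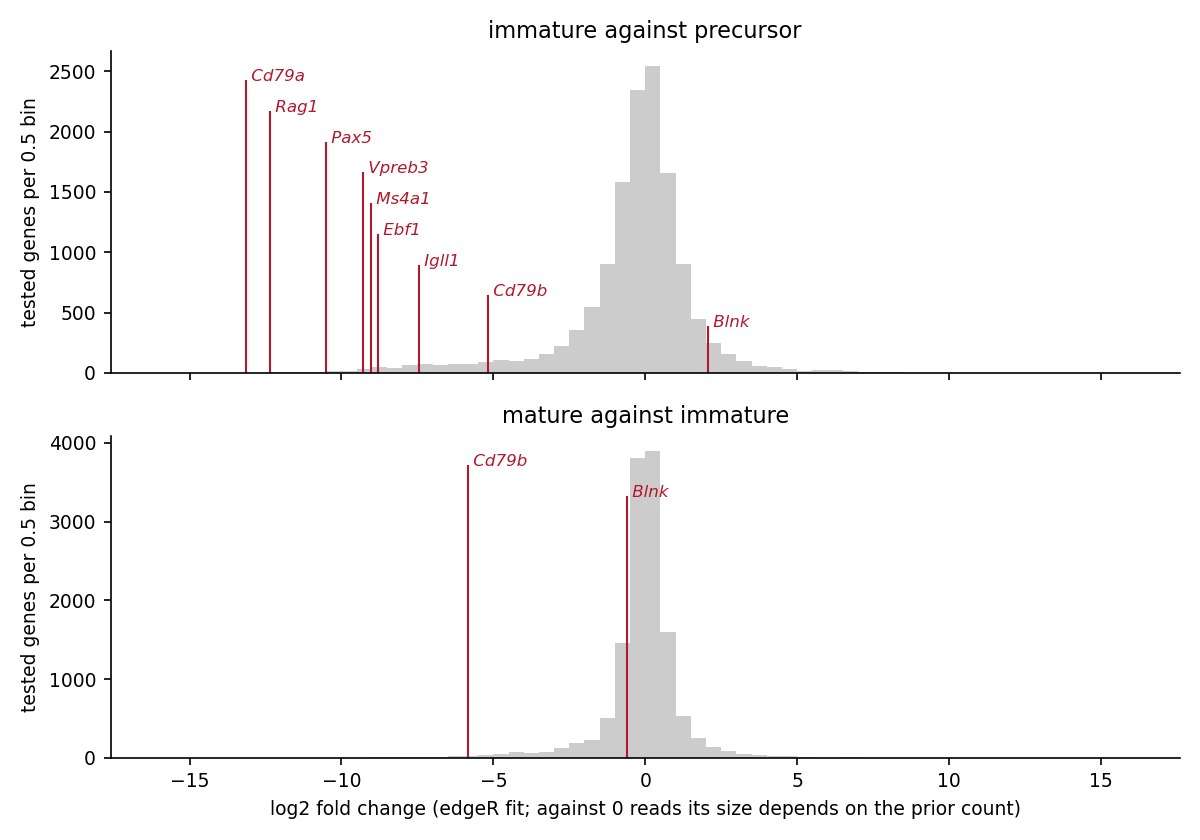
Number of tested genes by edgeR log2 fold change, in bins of 0.5, for immature macrophages against precursors (top) and mature against immature macrophages (bottom), with red lines at the named genes; line height has no meaning. In the top panel Cd79b at -5.16 is the least reduced of the 8 genes and Blnk lies at 2.08, and sizes against 0 reads depend on the prior count of the fit; the bottom panel marks only Cd79b and Blnk, since the other 7 had 0 to 2 reads in all 6 libraries.

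Within the precursors the 8 genes varied to different degrees. The coefficient of variation over 3 libraries ran from 4.12% for Ms4a1 to 29.2% for Rag1, and the highest library was 1.07 to 1.71 times the lowest. Library 1 was the lowest for 5 of the 8 genes (Cd79a, Cd79b, Pax5, Ebf1 and Rag1) and the highest for Vpreb3 and Igll1. Library 3 was the highest for Cd79b, Ms4a1, Pax5, Ebf1 and Rag1. The receptor chains, both factors and the recombinase were thus lowest in the library where Igll1 and Vpreb3 were highest. This order in 3 libraries was not tested. Vpreb3 differed only 1.12-fold between libraries, Igll1 rests on 89 precursor reads, and Ebf1 was nearly equal in libraries 1 and 2. The ranks of these genes are thus uncertain.

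Compared per kilobase of annotated exon, which allows genes to be set beside each other, the precursor levels fell into 4 steps. Cd79a at 59.3 ± 14.2 and Cd79b at 55.2 ± 13.8 CPM per kb overlapped between libraries. Next came Rag1 at 7.61 ± 2.22, Vpreb3 at 7.02 ± 0.404, Pax5 at 6.99 ± 1.45, Ms4a1 at 6.27 ± 0.258 and Blnk at 6.04 ± 1.06 CPM per kb, whose ranges over libraries overlapped from each gene to the next. Ebf1 at 3.42 ± 0.540 and Igll1 at 0.778 ± 0.107 CPM per kb lay below with no overlap (all SD, n = 3). The lengths join the exons of all annotated transcripts, so genes with many transcripts, such as Pax5 and Ebf1, read low on this scale.

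Other genes of the B lineage, taken from lists by function, mostly followed the 8. Of 4 further tested genes of the pre-B receptor and recombination list, Rag2, Dntt (the enzyme that adds bases at joins) and Iglc2 (a lambda constant gene) fell from precursors to immature macrophages and had 0 reads there. These entered the test through their precursor reads, so their fall was nearly fixed in advance. Over all tested genes 26.6% fell and 22.5% rose. Il7r, the receptor of the B cell growth factor interleukin 7, rose by 1.35 ± 0.38 on the log2 scale (SE; adjusted p = 0.0127, edgeR). The median log2 fold change of the 9 tested genes of this list was -9.29, or -5.91 with the 7 genes without reads set at their bound, beside -0.07 over all tested genes. For Iglc2 the 13.6 CPM of precursors became 0 reads in all 6 macrophage libraries. Il7r was at 21.2 to 26.2 CPM in precursors, 53.6 to 72.9 in immature and 18.6 to 71.6 in mature macrophages, so that immature libraries lay above all precursors while mature ones overlapped them.

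Of 11 other tested B cell surface genes, 7 fell, 2 rose and 2 did not pass in immature macrophages against precursors. Over all tested genes 26.6% fell and 22.5% rose in that comparison. For surface genes with almost no reads in macrophages a fall was nearly fixed in advance. With Ms4a1 the median was -6.52, or -5.85 at the bounds. Cd22, an inhibitory receptor, fell by 3.08 on the log2 scale but kept 12.7% of its level, with 120, 44 and 7 reads in the immature libraries. Cd72 and Cd40, both surface receptors also found on myeloid cells, went the other way. Cd72 rose from 48.1 ± 3.39 CPM in precursors to 88.3 ± 14.0 in immature and 431 ± 98.9 in mature macrophages (SD, n = 3), and Cd40 rose by 1.27 ± 0.26 in the first step (log2, SE). Tnfrsf13b, a receptor for B cell survival factors, did not pass, at 54.6 CPM in precursors and 44.9 in immature macrophages.

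Of 12 other tested transcription factors of the B lineage, 10 fell, none rose and 2 did not pass in immature macrophages. Over all tested genes 26.6% fell and 22.5% rose there. All 14 factors, Pax5 and Ebf1 included, were lower in mature macrophages than in precursors, beside 28.5% of all tested genes. Factors with almost no reads in macrophages entered the test through their precursor reads, so their calls were nearly fixed in advance. The median of the 14 in immature macrophages was -7.44, or -6.58 at the bounds. Bach2, a repressor of plasma cell fate, fell from 73.4 to 0.252 CPM, while the more widely used factors Ikzf1 and Tcf3 fell from 294 to 59.4 and from 179 to 60.5 CPM. Irf8, which also drives the monocyte lineage, did not pass, at 391 CPM in precursors and 302 in immature macrophages, though it did as lower with limma on the deposited log2 RPM (adjusted p = 0.0387). Ikzf1 and Tcf3 thus kept 20.7% and 32.5% of their level where Pax5 kept 0.0536%.

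**Figure D3:**
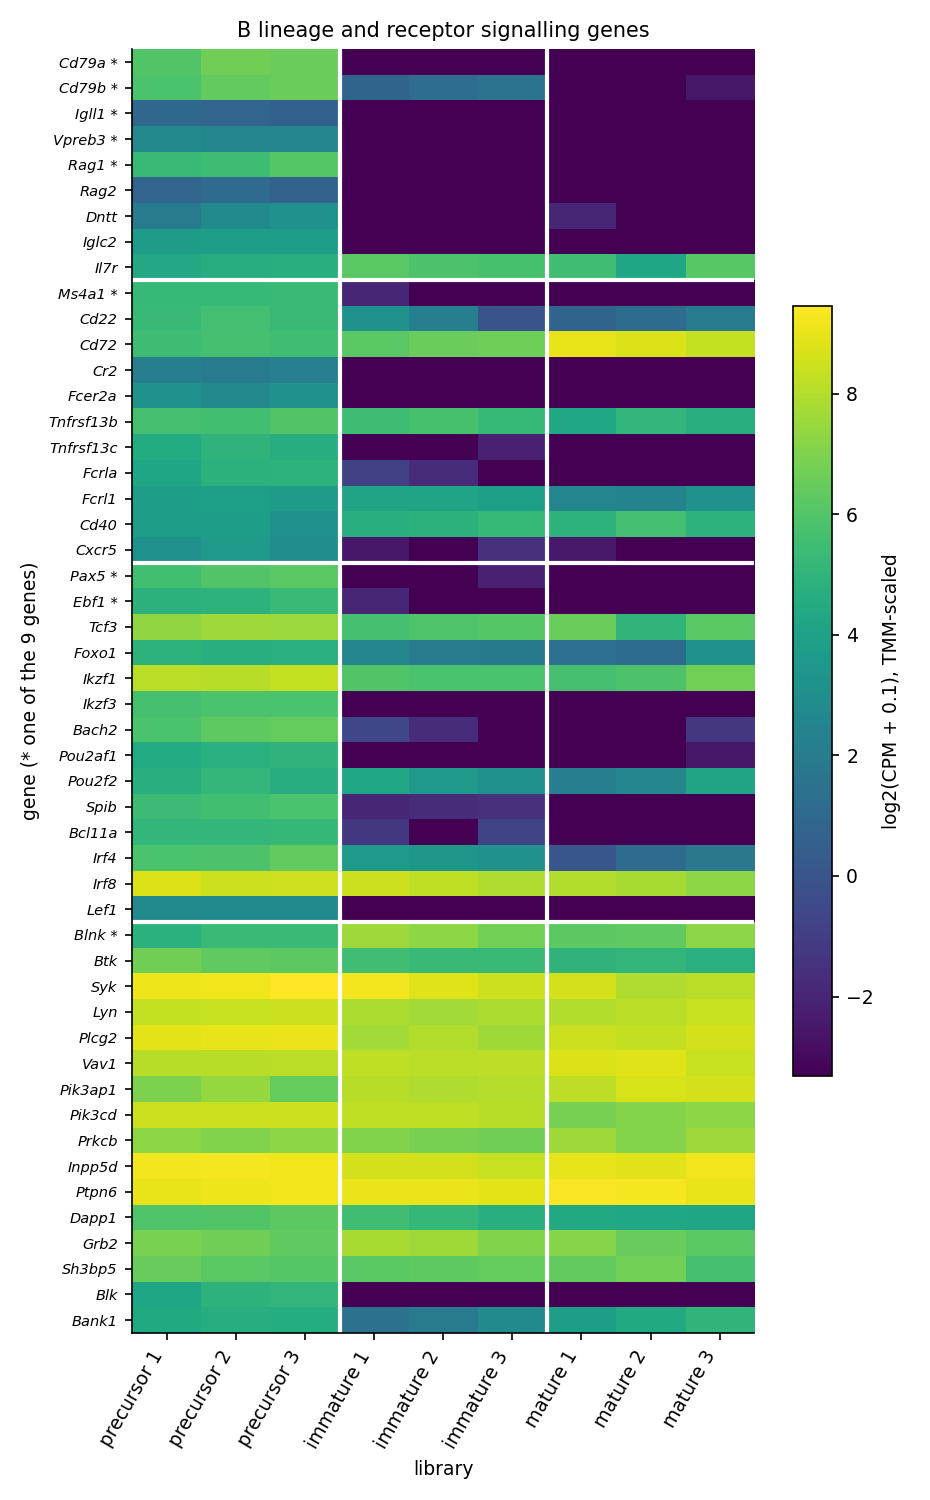
Level of 50 tested genes in the 9 differentiation libraries, as log2(CPM + 0.1), ordered in 4 blocks from top to bottom: pre-B receptor and recombination, B cell surface, B lineage transcription factors, and receptor signalling; stars mark the 9 genes. Dark cells are libraries with no or almost no reads. In mature macrophages these include 8 of the 9 genes, and in immature ones the same genes other than Cd79b, which had 21 or 22 reads per library. Il7r, Cd72, Cd40, Irf8 and Ikzf1 are among the bright exceptions of the upper 3 blocks. In the lower block Blnk is brighter in macrophages than in precursors, and Blk has no read in macrophages.

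Blnk, the adaptor that links Syk to the calcium pathway, was the only one of the 9 genes above its precursor level in macrophages. It lies at chr19:40928927-40994535 on the minus strand and was at 28.8, 40.0 and 39.7 CPM in precursors (36.2 ± 6.35, SD, n = 3). In immature macrophages it was at 194, 157 and 107 CPM (153 ± 43.8, SD, n = 3) and in mature macrophages at 74.5, 79.6 and 150 CPM (101 ± 42.0, SD, n = 3). All 6 macrophage libraries were above all precursor libraries, and the immature and mature libraries overlapped. Blnk rose by 2.08 ± 0.31 on the log2 scale in immature (SE; adjusted p = 0.000356, edgeR) and by 1.49 ± 0.31 in mature macrophages against precursors (SE; adjusted p = 0.00204). Per kilobase of exon it went from 6.04 to 25.5 and 16.9 CPM, so its level in all immature libraries was below that of Cd79a and Cd79b in all precursor libraries.

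Between immature and mature macrophages Blnk differed by -0.59 ± 0.30 (log2, SE; adjusted p = 0.211, edgeR), which did not pass. Mature library 3 was the high one, and without it the difference was -0.99 with an adjusted p of 0.0266, which would pass. Over the 16 alternatives the adjusted p ran from that value to 0.504.

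The partners of Blnk in receptor signalling had reads in all groups, other than Blk. Of the 15 other tested genes of that list, 2 rose (Pik3ap1 and Grb2, both adaptors), 7 fell and 6 did not pass in immature macrophages against precursors. Over all tested genes 22.5% rose and 26.6% fell in that comparison. The median of the list with Blnk was -0.38, or -0.30 with Blk, which had no read, at its bound. Grb2 lost its call without precursor library 2 or 3 or immature library 1 or 2, with adjusted p of 0.0575, 0.0859, 0.0705 and 0.0679. Syk, the kinase in front of Blnk, was at 617 CPM in precursors and 473 in immature macrophages and did not pass, though it did as lower with limma on the deposited log2 RPM (adjusted p = 0.0388). Plcg2, the phospholipase that Blnk recruits, fell by 1.24 on the log2 scale, from 516 to 219 CPM. Inpp5d, an inhibitory phosphatase, fell by 0.69, and Ptpn6, another, did not pass at 555 and 529 CPM. In this list the rise of Blnk was thus the greatest fold of the 3 that passed, with Pik3ap1 at 1.03 and Grb2 at 0.87 on the log2 scale.

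In the table of macrophages with or without IL4 the 8 other genes had 0 reads in all 6 libraries, and Blnk was the only one of the 9 with reads. Blnk was at 331, 370 and 218 CPM in the unstimulated libraries (306 ± 79.4, SD, n = 3) and 492, 449 and 434 CPM with IL4 (458 ± 29.9, SD, n = 3). The groups did not overlap. The difference of 0.58 ± 0.21 (log2, SE) did not pass (adjusted p = 0.0714, edgeR), in a comparison where 10.5% of 8936 tested genes were higher and 10.3% lower. With the mouse number of the titles as a replicate block it was 0.61 with an adjusted p of 0.00692, and with DESeq2 the adjusted p was 0.0475, while the other alternatives gave 0.0522 to 0.198. Deviations of same-numbered libraries of this table from their group means correlated at 0.175 to 0.591 over 3 pairs. Those of differently numbered ones correlated at -0.487 to 0.247 over 6 pairs, so the ranges overlapped. The column names carry a different animal code in each library. Whether the block is warranted is thus not settled.

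A count of 0 in the IL4 table is not comparable with one in the differentiation table. Over each group of 3 libraries 3 reads correspond to 0.279 CPM in unstimulated cells and 0.306 CPM with IL4. Of 5802 genes that are in both tables and have at least 200 reads in each mature library, 344 (5.93%) are listed at 0 in all 6 libraries of the IL4 table. Tnfrsf13b is 1 such gene, with 249 to 348 reads in the mature libraries. The 2 tables were scaled separately, so the Blnk levels of mature and unstimulated macrophages were not compared.

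**Figure D4:**
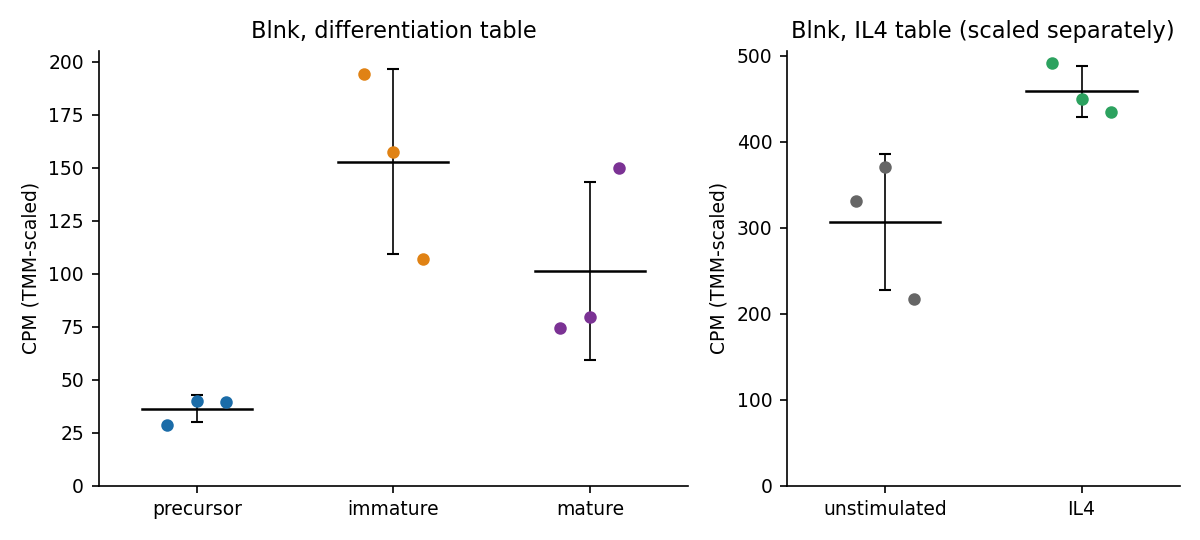
Blnk by library in CPM with TMM-scaled totals, in the differentiation table (left) and the IL4 table (right), which were scaled separately and have different axes. Points are libraries, bars the mean and whiskers the SD of 3 libraries; all immature and mature points are above the precursor points, and the IL4 points (434 to 492) are above the unstimulated points (218 to 370).

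Few other B lineage genes had enough reads to be tested with IL4, and they moved in both directions. The 1 tested gene of the pre-B list rose, and of 4 surface genes 2 rose, 1 fell and 1 missed the threshold. Of 6 transcription factors 1 rose, 3 fell and 2 missed it. Over all tested genes 10.5% rose and 10.3% fell with IL4. Il7r rose by 3.63 ± 0.39 on the log2 scale (SE; adjusted p = 8.61e-05, edgeR), from 16.4, 61.0 and 28.1 CPM to 480, 431 and 363 CPM. Cd22 rose by 2.16 ± 0.24, with unstimulated libraries at 5.18 to 5.63 CPM and IL4 libraries at 20.1 to 28.9 CPM, and Cd72 by 1.00 ± 0.18. Fcrl1, a receptor of the Fc receptor-like family, fell by 2.65 on the log2 scale (adjusted p = 0.000324, edgeR), and Cd40 did not pass, at 41.2 CPM unstimulated and 41.1 with IL4. Irf4, the factor of plasma cell and IL4 responses, was the factor that rose, by 4.09 ± 0.29. Of the 14 other tested signalling genes, 2 rose, among them Syk by 0.63 ± 0.16 (not passed without IL4 library 2, adjusted p = 0.0513), 8 fell and 4 missed the threshold; the list with Blnk had a median of -0.79 beside 0.01 over all genes tested.

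Many markers of other marrow cells fell over the same step as the 8 genes, while others did not pass or rose. Plasmacytoid dendritic cells use Tcf4 and share some transcripts with B cells. Of 8 tested genes of these cells, 5 fell and 3 did not pass in immature macrophages, where 26.6% of all tested genes fell. The summed level of the list was 281 to 462 CPM in precursors and 150 to 284 in immature macrophages, so that the libraries overlapped. Tcf4 and Irf7, which did not pass, stood at 122% and 97.6% of their precursor level in immature macrophages. Siglech, the defining receptor of plasmacytoid dendritic cells, was at 65.9 CPM in precursors and 0.745 in immature macrophages, with 0 reads in mature ones. The T and NK cell list had 25.2 to 34.1 CPM in precursors, 2.81 to 33.0 in immature and 0.324 to 0.936 in mature macrophages, so that immature and precursor libraries overlapped. Of its 5 tested genes 4 fell and Cd4 rose, to 32.8, 11.8 and 2.81 CPM in the immature libraries. Without immature library 1, the highest of these, neither the rise of Cd4 (adjusted p = 0.0726) nor the fall of Cd3d (0.0514) passed. Cd3e, with 48 reads, and Cd8a, with 490 reads in precursors, had 0 afterwards. Of 5 tested plasma cell genes 3 fell and 2 did not pass. Jchain had 845 reads in precursors, 1 in immature and 0 in mature macrophages. Xbp1 and Prdm1, which did not pass, stood at 121% and 178% of their precursor level in immature macrophages. The summed level of the plasma cell list was 270 to 277 CPM in precursors and 261 to 293 in immature macrophages, so that it did not fall. All 10 neutrophil granule genes fell. What part these other cells have in the levels of the 8 genes was not tested.

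The share left in immature macrophages differed between these groups. The neutrophil granule genes kept 0.711% (Lcn2) to 3.16% (Elane) of their precursor level, with a median of 1.35%, and all 10 still had reads. Of the 8 B lineage genes, Cd79b at 2.71% was within that range. Pax5, Ms4a1 and Ebf1, at 0.0536%, 0.171% and 0.203%, had lower values, as had the limits for Cd79a, 0.111%, and Rag1, 0.205%. Ebf1 rests on 2 reads, and its counting interval reaches into the neutrophil range. For Vpreb3 and Igll1 the limits of 1.66% and 5.83% are too high to place them. By library the summed level of the 8 genes in immature macrophages was 0.551%, 0.630% and 0.823% of the precursor mean, and that of the neutrophil genes 1.32%, 0.922% and 1.23%.

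**Figure D5:**
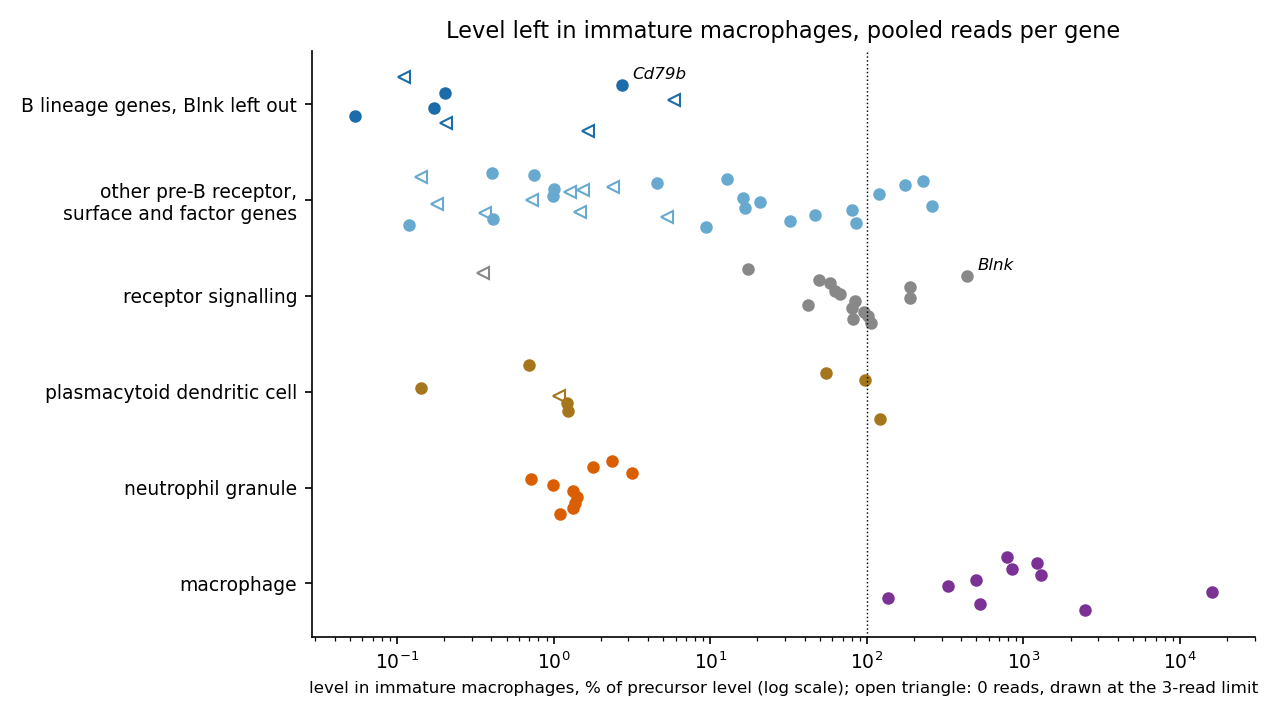
Level in immature macrophages as a percentage of the precursor level, from pooled reads scaled by library totals, on a log axis, for single genes in 6 groups; vertical position within a group only separates the genes. Open triangles are genes with 0 reads, drawn at the limit of 3 reads, and the dotted line marks 100%. In the top group Cd79b lies among the neutrophil granule genes. Pax5, Ms4a1 and Ebf1 have lower values, Ebf1 within counting error of the range. Other B lineage genes, in the second group, spread more widely, with Cd22 at 12.7% and Il7r at 261%. Blnk lies at 436%.

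The genes most like Cd79a and Blnk over the 9 libraries were looked up among 9470 tested genes of at least 10 CPM in some group, by Pearson correlation of log2 CPM, as a description. For Cd79a they included Cecr2, Fcmr, Pik3c2b and Ikzf3, with r of 0.9996 to 0.9998, and these 4 had 0 reads after the precursors. As Cd79a also had none there, these r values were set largely by the shared zeros. For Blnk they were Idua, P2ry6, Glmp, Dnajc16 and Slc38a7, with r of 0.975 to 0.987. P2ry6, a nucleotide receptor, was at 36.1, 182 and 112 CPM in precursors, immature and mature macrophages, where Blnk was at 36.2, 153 and 101.

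The authors' deposited tables of genes under their FDR threshold list all 9 genes for precursors against immature macrophages, among 7468 genes. They also list all 9 for precursors against mature macrophages, among 7291. The differentiation table holds 34245 genes, and the lists come from the same libraries, so they are no independent support. For immature against mature macrophages the authors' deposited table lists Cd79b, with an FDR of 5.34e-09, and none of the other 8, among 1494 genes. Of those 8, all but Blnk had 0 to 2 reads over both groups. None of the 9 is in the authors' deposited table of 1863 genes for IL4, where the counts cover 25965 genes.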

How the data were processed

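RNA of cultured mouse marrow cells was sequenced by Ion Torrent. What the authors deposited is a table of unnormalized counts for each gene in 9 differentiation libraries and another in 6 libraries with or without IL4. Beside these they deposited log2 RPM, and lists with an adjusted p-value (FDR) of their own. The submitters' processing notes name HISAT2 2.0.5, edgeR, GRCm38.p6 and GRCm39.p6. Coordinates in the files match GENCODE M21 on GRCm38. Not given in the sources used here are the counting program, the strand setting and the treatment of reads that fit several genes.

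Counts were fitted in R 4.3.3 with edgeR 4.0.16: filterByExpr with a minimum count of 10, which left 13359 and 8936 genes, TMM, glmQLFit and glmQLFTest by group, with Benjamini-Hochberg adjustment over all genes tested, called under 0.05. Each table had 1 fit. All 9 genes were tested in the first and only Blnk in the second. Folds against few reads are ratios of pooled reads with exact 95% counting intervals, or bounds at 3 reads over the group. These cover counting error only.

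The 9 genes and the 9 gene lists were chosen with earlier results of these data known. Besides the 9 genes, the text names up to 4 tested genes per list with the highest level in precursors and list genes called against most of their list, and the 5 genes most like Cd79a and Blnk. Of the genes so chosen, 1 is not reported here by name, though counts and medians over its list include it. Lcn2, Elane, Cd3d, Cd3e, Fcrl1, Blk, Vpreb1, Vpreb2 and the genes that overlap Rag1 and Ms4a1 were added after their values were seen. Ighm, Igkc and Iglc1 were not analysed here.

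The titles number mice 1 to 3. In the differentiation libraries same-numbered samples did not deviate together (correlations of -0.129 to 0.165 over 9 pairs). In the IL4 table same-numbered samples correlated at 0.175 to 0.591 and differently numbered ones at -0.487 to 0.247, so the ranges overlapped. Tried alternatives were RLE scaling, DESeq2 1.42.0, limma 3.58.1 on the deposited log2 RPM, 2 other filters, a stricter threshold, a replicate block, fits of only the groups compared, and leaving out each library. On simulated counts of the first comparison (12951 genes) 42% of 2-fold and 90% of 4-fold changes were recovered with 4 false calls, and on those of the IL4 comparison (8844 genes) 73% and 100% with 13 false calls.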

Additional observations from a re-analysis of the deposited data

How the results depend on the processing

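At an adjusted p of 0.05, the 8 genes other than Blnk were called lower in immature and in mature macrophages than in precursors under all 16 alternatives other than the stricter threshold, Blnk was called higher in both, and Cd79b was called lower in mature than in immature macrophages under all 16. At 0.001, 7 of the 8 were called lower in immature macrophages, Igll1 (0.00128) being lost, all 8 were in mature macrophages, and Blnk was called higher in immature but not in mature macrophages (0.00204). Of 332 recomputed values of the 9 genes, 329 kept direction and side of the threshold and 3 came to pass it, all for Blnk: without mature library 3 between mature and immature macrophages, and with the replicate block and with DESeq2 for IL4. None of the 332 reversed. The cause was not tested. Of the 8 genes, all but Cd79b had almost no reads in macrophages. Their calls against precursors were nearly fixed in advance, so their part of these counts is no measure of support. With limma on the deposited log2 RPM the falls read smaller, for example -10.17 for Cd79a and -3.60 for Igll1. The median of all tested genes moved from -0.07 (TMM) to 0.10 (log2 RPM) for immature macrophages against precursors and from -0.05 to 0.08 for mature macrophages against precursors. With it, 3790 genes were higher and 3136 lower in the first of these comparisons, where edgeR gave 3009 and 3559, and 4067 higher and 3457 lower in the second, where edgeR gave 3445 and 3810.

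Under an adjusted p of 0.001, genes called went from 6568 to 2185 for immature macrophages against precursors, from 1991 to 210 for mature against immature macrophages, from 7255 to 2966 for mature macrophages against precursors and from 1855 to 520 for IL4. Fitting only the 6 libraries compared gave 1245 genes between mature and immature macrophages. Leaving out single libraries gave 1007 to 2702 there, the lowest without immature library 2 and 1262 without immature library 1, and the members called lower there were 1 or 2, the second being Blnk without mature library 3. With the replicate block, genes called with IL4 went to 2883. With it the 3 differentiation comparisons gave 6142, 1547 and 6861 genes, and it changed no other call of the 9 genes. Igll1 and Vpreb3 rest on 89 and 313 precursor reads, so depth limits how far their fall can be followed.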
